A study of Mus musculus with 42 samples.

Results

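The 45 genes described here drive or mark the cell division cycle, and they were followed in T cells sorted from the gut, the ankle joint and the lymph nodes that drain them. They were selected by gene symbol for their known roles, with earlier results of these data known. All 45 were found among the 46603 genes of the count table. In all, 9 S phase genes (Mcm2 to Mcm7, Pcna, Rrm2 and Tyms) were kept apart from 23 mitotic genes, and the other 13 members cover licensing, nucleotide supply and the transcription factors of the cycle. The cells, sorted as regulatory (Treg) or conventional CD4+ (Tconv), came from TNFdARE mice and from wild-type (WT) littermates by a Foxp3-GFP reporter. The TNFdARE allele removes the element that restrains Tnf mRNA, so that TNF is made in excess and the gut and joints become inflamed. Animals of both genotypes carried the DEREG transgene, in which Foxp3 control sequences drive GFP fused to a toxin receptor, so that a cell is called Treg by the activity of this transgene. The 4 sites, sampled in 3 independent experiments, were the ileum, the mesenteric node, the synovium of the ankle, and the inguinal and popliteal nodes together (the joint nodes below). Of the 16 groups, 11 held 3 libraries: all 4 groups of the ileum, all 4 of the joint nodes, WT Treg and WT Tconv of the mesenteric node, and TNFdARE Treg of the synovium. TNFdARE Treg and TNFdARE Tconv of the mesenteric node held 2 libraries each, from experiments B and C. In the synovium, WT Treg (A and B) and TNFdARE Tconv (A and B) held 2 libraries each, and WT Tconv held 1, from experiment A.

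A dividing cell copies its DNA in S phase and parts the copies in mitosis. Before S phase, Cdc6 and Cdt1 load the ring formed by Mcm2 to Mcm7 onto DNA, and Cdc45 and Gins2 turn that ring into the moving helicase. Pcna is the clamp that holds the polymerase, and Rrm1, Rrm2, Tyms and Tk1 supply nucleotides. E2f1 and the E-type cyclins Ccne1 and Ccne2 act at the entry into S phase, while Foxm1 and Mybl2 (B-Myb) switch on the later mitotic genes. Cdk1 with Ccna2, Ccnb1 and Ccnb2 starts mitosis, Aurka, Aurkb, Plk1, Bub1 and Bub1b govern the spindle and its checkpoint, the kinesins Kif11, Kif20a and Kif23 build and divide the spindle, and Cdc20 and Ube2c end mitosis through the anaphase-promoting complex. Resting T cells leave the cycle, and activated or effector T cells re-enter it; Treg in mice are known to hold more cycling cells than naive Tconv.

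Each library held between 18261064 and 30301202 counts, and all 45 genes passed the low-count filter in each comparison. Foxp3 lay between 550 and 1660 CPM (counts scaled to the library's total) in the Treg libraries. In Tconv it lay between 6.39 and 7.3 CPM in the WT nodes, between 119 and 201 CPM in the TNFdARE ileum and at 600 and 604 CPM in the TNFdARE synovium, so the last 2 groups held Foxp3 mRNA well above that of node Tconv. The synovial WT Treg libraries stood apart: the summed level of 6 stromal genes, all detected, was 15707 CPM in A and 12466.3 CPM in B, against 1430 to 5840 CPM in the TNFdARE Treg of the same site, and library A had 6 of the 45 cell cycle genes at 0. In bulk libraries, fewer dividing cells and less of these mRNAs per cell cannot be told apart. The labels name separate experiments but not separate animals, so the p-values below measure the spread between these libraries. Fold changes are given as log2 fold change ± standard error, adjusted p-values are over all genes tested, and a gene was called higher or lower at an adjusted p under 0.05. Counts from DESeq2 and from fits that leave out a library are given without the share of all genes called in the same fit. They show how far a count depends on the fit. Counts at an unadjusted p under 0.05 are given without the share of all genes at that threshold. A share printed beside such a count is at the adjusted p and cannot be set against it. None of these counts is read as particular to these 45 genes.

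The 45 genes differed widely in level and in how far they moved between libraries. Compared per transcript length, as the median over the 42 libraries in deposited FPKM (a level scaled to transcript length and library size), the helicase and clamp genes were the most abundant, with Mcm6 at 64.3, Mcm4 at 44.9 and Pcna at 42.3, while Mki67, the proliferation antigen Ki-67, had 4.79, Tk1 2.89 and Cenpf, a kinetochore protein, 0.265 FPKM. The standard deviation of log2 CPM over the 42 libraries had a median of 0.40 in the S phase list (range 0.28 to 1.19), 1.49 in the mitotic list (0.84 to 2.11) and 1.10 in the other members (0.36 to 1.70). Mcm4 ranged from 110 to 312 CPM and Mcm2 from 47 to 172 CPM, whereas Mki67 ranged from 2.43 to 179 CPM and Rrm2, the inducible subunit of ribonucleotide reductase, from 7.08 to 180 CPM. Of the S phase list, Rrm2 (1.19) and Tyms (0.75) had the widest spread.

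Across the 42 libraries, Pearson's r between a gene and the mean of the other mitotic genes had a median of 0.87 in the mitotic list, with 15 of 23 genes above 0.8. It was 0.96 for Rrm2, Kif11, Birc5 and Ube2c, 0.89 for Tyms, 0.86 for Rrm1 and 0.83 for Tk1. In contrast it was 0.67 for Mcm6, 0.12 for Mcm2, 0.01 for Mcm4, −0.04 for Mcm7 and 0.08 for Ccne1. Aurka, with 0.31, was the mitotic gene least like its list. These values describe the libraries, which share depth, amplification and cell composition, and carry no test. Named pseudogene copies of Ccnb1, Pcna, Stmn1 and Tyms exist in the gene annotation, so reads of these 4 genes could be split in counting.

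**Figure D1:**
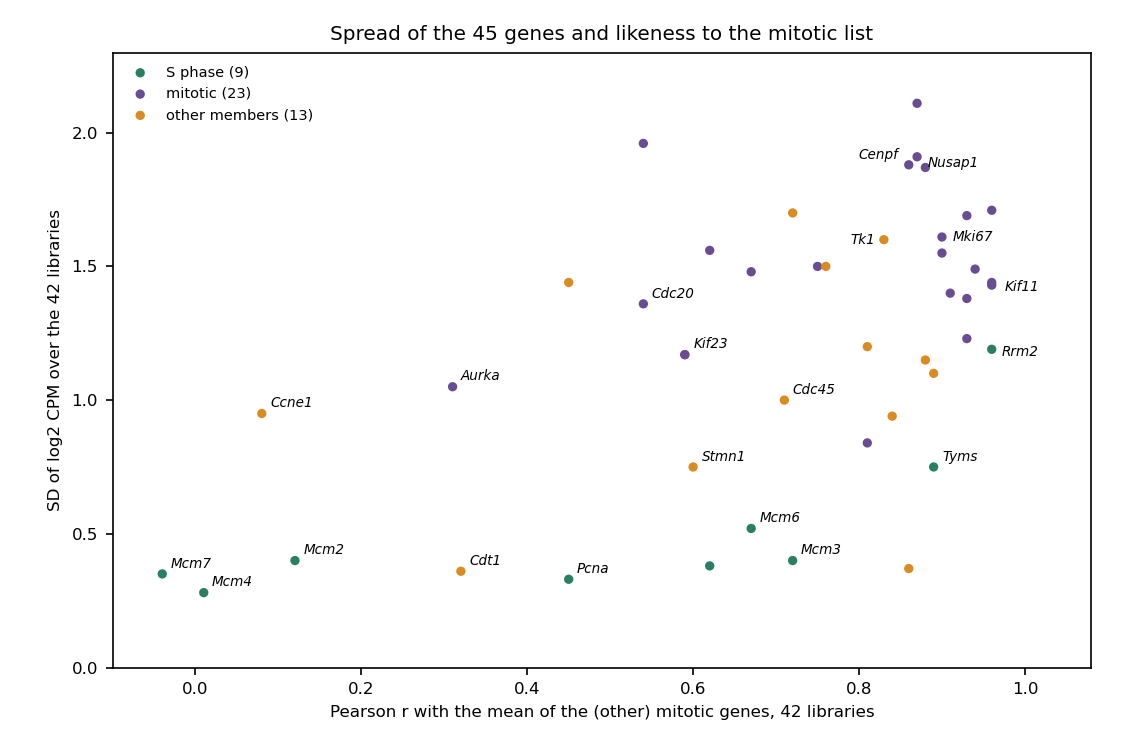
Each point is 1 of the 45 genes: the x axis is Pearson's r between its log2 CPM and the mean log2 CPM of the (other) mitotic genes over 42 libraries, the y axis the standard deviation (SD) of its log2 CPM over the same libraries, and the colour the list. Rrm2 and Tyms lie with the mitotic genes on the right, and Mcm2, Mcm4 and Mcm7 lie at the lower left with r between −0.04 and 0.12.

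The promoters of the genes that moved together were read for the 2 kinds of letters by which cell cycle promoters are usually described. The cell cycle homology region (CHR, TTTGAA or TTTAAA) with a CCAAT box is known from late cell cycle genes, and E2F words (TTTCGCGC, TTTGGCGC or TTCCCGCC) from S phase genes. Windows of 300 bases, from 250 before to 50 after the RefSeq start (mouse GRCm38.p6), were found for 36 of the 45 genes, and both strands were searched. A CHR and a CCAAT box stood together in 16 of 19 mitotic promoters (84.2%), in 3 of 8 S phase promoters (37.5%), in 2 of 9 of the other members (22.2%) and in 12.2% of the promoters of all 27025 genes in the table. An E2F word was held by 1 of 19 mitotic promoters (5.26%, Cdk1), 4 of 8 S phase promoters (50%), 3 of 9 of the others (33.3%) and 3.39% of all genes. The windows of 5 genes are printed 5′ to 3′ on the gene's strand, with these motifs in capitals: Ube2c, Kif11 and Rrm2, whose r with the mitotic mean was 0.96, Mcm6 (0.67) and Mcm2 (0.12).
Ube2c, chr2:164769679-164769978, plus strand: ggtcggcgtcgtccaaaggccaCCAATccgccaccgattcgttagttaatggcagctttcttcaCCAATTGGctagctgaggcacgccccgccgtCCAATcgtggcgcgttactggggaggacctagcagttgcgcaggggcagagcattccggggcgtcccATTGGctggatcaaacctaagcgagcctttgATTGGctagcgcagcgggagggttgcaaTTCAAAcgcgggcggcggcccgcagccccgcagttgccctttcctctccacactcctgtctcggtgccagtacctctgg
Kif11, chr19:37376132-37376431, plus strand: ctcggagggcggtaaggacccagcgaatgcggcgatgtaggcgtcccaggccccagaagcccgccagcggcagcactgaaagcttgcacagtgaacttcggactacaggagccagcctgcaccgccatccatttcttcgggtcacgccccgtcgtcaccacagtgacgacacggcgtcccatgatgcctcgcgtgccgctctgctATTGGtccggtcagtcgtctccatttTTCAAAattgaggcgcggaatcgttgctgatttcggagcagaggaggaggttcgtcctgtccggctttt
Rrm2, chr12:24708004-24708303, plus strand: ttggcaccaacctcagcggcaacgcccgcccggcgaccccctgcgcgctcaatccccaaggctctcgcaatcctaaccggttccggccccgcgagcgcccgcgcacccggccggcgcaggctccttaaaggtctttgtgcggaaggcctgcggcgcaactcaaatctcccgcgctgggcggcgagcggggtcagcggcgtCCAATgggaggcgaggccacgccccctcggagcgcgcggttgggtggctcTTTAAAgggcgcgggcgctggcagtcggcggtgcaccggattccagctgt
Mcm6, chr1:128359656-128359955, minus strand: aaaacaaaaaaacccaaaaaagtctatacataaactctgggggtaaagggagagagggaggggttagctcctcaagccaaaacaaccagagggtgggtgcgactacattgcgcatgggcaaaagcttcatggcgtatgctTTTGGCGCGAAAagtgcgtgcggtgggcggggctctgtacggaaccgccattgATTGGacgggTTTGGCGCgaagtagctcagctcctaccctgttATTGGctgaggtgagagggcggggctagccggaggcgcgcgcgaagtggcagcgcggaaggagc
Mcm2, chr6:88898731-88899030, minus strand: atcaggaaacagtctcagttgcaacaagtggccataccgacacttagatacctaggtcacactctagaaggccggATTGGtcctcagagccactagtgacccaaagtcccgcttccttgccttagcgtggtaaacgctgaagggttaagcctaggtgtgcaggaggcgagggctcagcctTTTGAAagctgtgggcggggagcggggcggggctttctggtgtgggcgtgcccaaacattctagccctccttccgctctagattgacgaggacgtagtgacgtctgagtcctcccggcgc
Counted from the start as base 1, with the last base before it as −1, the CHR of Ube2c lay on the opposite strand at −29 to −24, that of Kif11 on the opposite strand at −19 to −14, and that of Rrm2 at 1 to 6. Rrm2, an S phase gene, held a CHR and a CCAAT box together, as 16 of 19 mitotic promoters did. Its CHR had the form TTTAAA, found in 7 of 19 mitotic promoters, against 14 of 19 for TTTGAA. Mcm6 held 2 CCAAT boxes, no CHR and 3 E2F words, 2 of which overlap. Mcm2 held a CHR at −70 to −65 and a CCAAT box at −175 to −171 although its mRNA moved little with the mitotic genes. A match describes the letters in these windows and not a bound site.

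To set the 16 groups beside each other, the mean log2 CPM of the 23 mitotic genes and of the 9 S phase genes was taken in each library (the mitotic score and the S phase score). The mitotic score was highest in TNFdARE Tconv of the synovium, 4.98 ± 0.27 (SD, n = 2), and lowest in WT Tconv of the mesenteric node, 1.31 ± 0.64 (n = 3). Between these ends lay Tconv of the WT ileum with 4.17 ± 0.27, Treg of the WT ileum with 4.16 ± 0.86, TNFdARE Treg of the synovium with 4.10 ± 0.52, TNFdARE Treg of the ileum with 3.93 ± 0.54 and TNFdARE Tconv of the ileum with 3.82 ± 0.41 (n = 3 each). The last 5 of these differed from their neighbours by less than the SDs. Treg of the joint nodes followed with 3.70 ± 0.35 (TNFdARE) and 3.44 ± 0.28 (WT), and Treg of the mesenteric node with 3.21 ± 1.06 (TNFdARE, n = 2) and 2.37 ± 0.75 (WT). Tconv of the nodes made up the low end, with 1.95 ± 1.21 (mesenteric TNFdARE, n = 2), 1.73 ± 0.30 (joint TNFdARE) and 1.38 ± 0.21 (joint WT). The 2 synovial WT Treg libraries, lay apart, at 2.64 in A and 5.2 in B, and the single synovial WT Tconv library had 2.83. The S phase score had a much smaller range between groups, from 5.84 in WT Tconv of the joint nodes to 7.09 in TNFdARE Tconv of the synovium.

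**Figure D2:**
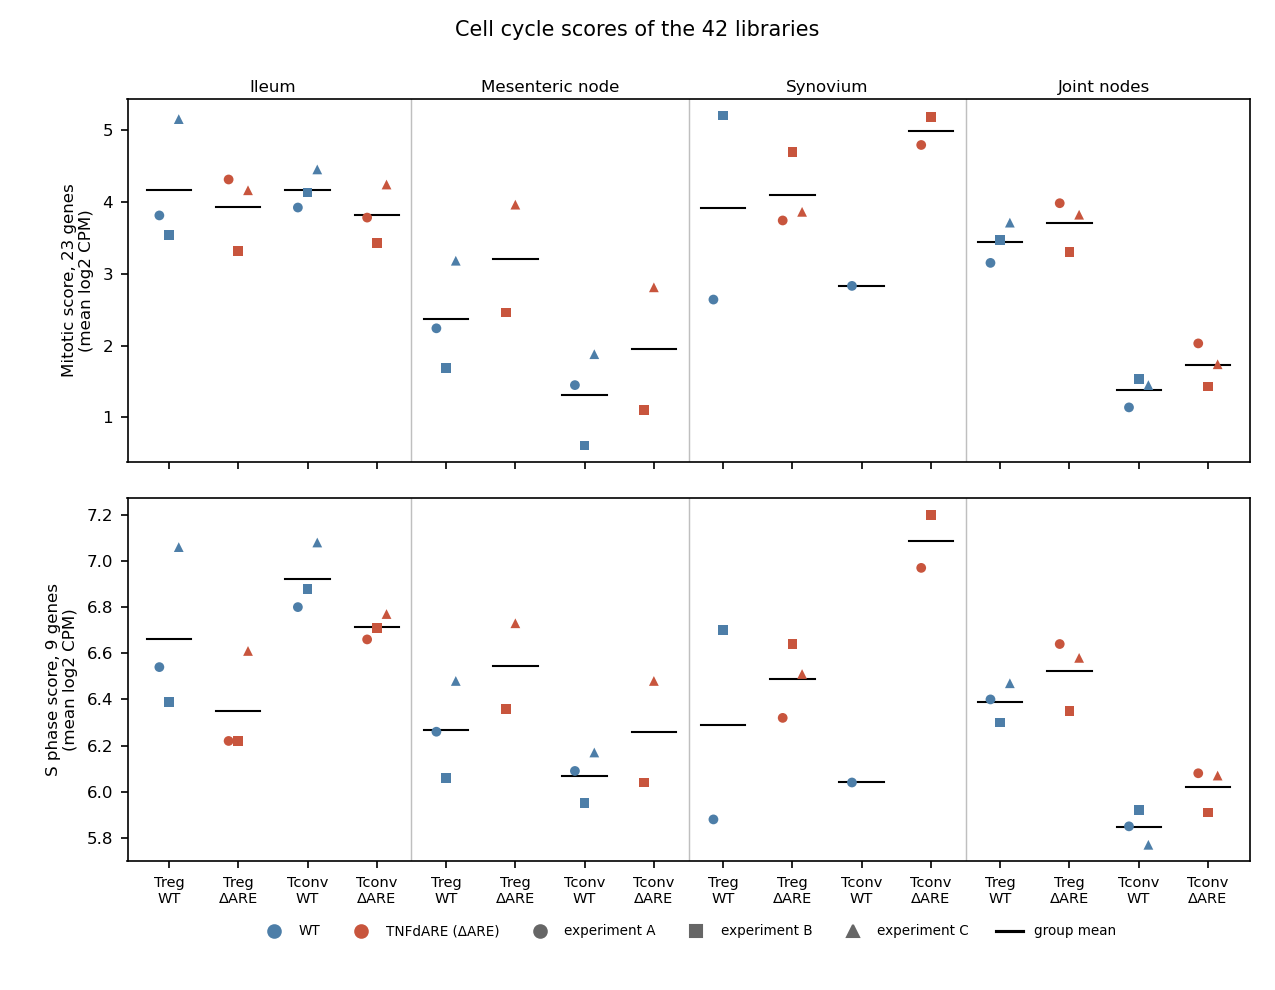
Mean log2 CPM of the 23 mitotic genes (upper panel) and the 9 S phase genes (lower panel) in each of the 42 libraries, by site, cell type and genotype; marker shape gives the experiment and the black line the group mean. Node Tconv lie lowest in the upper panel (group means 1.31 to 1.95), and the 2 synovial WT Treg libraries lie at 2.64 and 5.2.

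In the joint nodes, Treg held more mRNA of nearly the whole cycle than Tconv did. The mitotic score of the 6 Treg libraries lay between 3.15 and 3.98 and that of the 6 Tconv libraries between 1.14 and 2.03, with no overlap and a difference of 2.01 on the log2 scale. Of the 45 genes, 38 were higher in Treg and 2 lower, where 22.1% of all genes tested were higher and 21.2% lower. The mitotic list gave 22 of 23 higher with a median log2 fold change of 2.17, the S phase list 5 of 9 higher and 1 lower with a median of 0.21, and the other members 11 of 13 higher and 1 lower with a median of 1.54, against a median of 0.00 over all genes.

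Mki67 was 30.8, 55.5 and 53.8 CPM in WT Treg of the joint nodes and 59.6, 59.1 and 68.5 CPM in TNFdARE Treg, against 4.64, 5.85 and 6.82 CPM in WT Tconv and 9.69, 8.56 and 12.7 CPM in TNFdARE Tconv. No Tconv library reached a Treg library, and the log2 fold change was 2.80 ± 0.16 (6.95-fold, adjusted p = 2.8e-09). Aurkb, the kinase of the chromosomal passenger complex, rose 9.48-fold (3.25 ± 0.33, adjusted p = 1.7e-06) and Ccna2 6.57-fold. Tk1, thymidine kinase, which salvages thymidine for DNA synthesis, was 8.32-fold higher (3.06 ± 0.19, adjusted p = 8.4e-09), and Cdc6 6-fold and Mybl2 4.02-fold. Rrm2 was 31.9 to 57.1 CPM in the 6 Treg libraries and 7.6 to 12.6 CPM in the 6 Tconv libraries, 4.47-fold higher (2.16 ± 0.13, adjusted p = 5.9e-09), and Tyms, thymidylate synthase, was 2.26-fold higher. The helicase genes moved little beside these: Mcm6 was 1.58-fold higher, Mcm2 was at −0.06 ± 0.08 (adjusted p = 0.59), and Mcm4 was lower by −0.15 ± 0.05 (adjusted p = 0.026), a call that held in 8 of 18 alternative fits. Cdt1, which loads the helicase, was also lower in Treg (−0.35 ± 0.07, adjusted p = 0.00084). Mcm2, Mcm3, Pcna, Kif23 and Stmn1 did not pass.

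In the mesenteric node the same comparison pointed the same way in each experiment but with a wide spread. Treg exceeded Tconv of the same experiment and genotype in all 5 pairs, by 0.80 to 1.36 in the mitotic score and by 0.11 to 0.32 in the S phase score. In all, 18 genes were higher in Treg and 3 lower (Mcm2, Mcm4 and Cdt1), where 20.8% of all genes were higher and 17.8% lower, and all 18 were among the 38 genes higher in Treg of the joint nodes (100% of the 18 and 47.4% of the 38). With the experiment as a block, which removes differences between the experiments, 31 were higher and 5 lower (22.6% and 19.3% of all genes). The count rested on single libraries: it was 12 without Tconv TNFdARE B, 13 without Treg TNFdARE C and 28 without Treg TNFdARE B.

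Mki67 in Treg of the mesenteric node was 19.3, 16.8 and 41.5 CPM (WT) and 47.1 and 61.4 CPM (TNFdARE), against 4.52, 2.43 and 9.93 CPM and 7.5 and 23.1 CPM in Tconv. The highest Tconv library, TNFdARE C, overlapped the 2 lowest Treg libraries, and the fold change was 2.02 ± 0.40 (4.07-fold, adjusted p = 0.0017). Tk1 did not overlap, with 10.4 to 24.5 CPM in Treg and 2.45 to 4.65 CPM in Tconv (2.37 ± 0.15, 5.18-fold, adjusted p = 1.8e-07). Tpx2, a spindle assembly factor, rose 2.5-fold, Cenpe, a kinetochore motor, 2.44-fold, Rrm2 2.39-fold (adjusted p = 0.037), Ccne2 2.19-fold and Mcm6 1.56-fold. Mcm2 was lower in Treg (−0.39 ± 0.08, adjusted p = 0.0015), with 88.8 to 108 CPM against 124 to 144 CPM and no overlap, and so were Mcm4 (−0.23 ± 0.06) and Cdt1 (−0.37 ± 0.09).

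Within the tissues few of the 45 genes passed between Treg and Tconv. In the ileum the mitotic score differed by 0.06, Treg were higher in 2 of 6 pairs of 1 experiment (differences −0.60 to 0.70), and Mki67 was at 0.02 ± 0.18 (adjusted p = 0.95), with 51.1 to 88.8 CPM in Treg and 61.8 to 103 CPM in Tconv. The S phase score was lower in Treg in all 6 pairs, by −0.49 to −0.02. In ileal Treg 1 gene was higher, Tk1, and 2 were lower, Mcm2 and Mcm4, where 7.93% of all genes were higher and 6.85% lower. With the experiment as a block the count was 2 higher and 4 lower (9.53% and 8.27%). Leaving out Treg WT C gave 1 higher and 6 lower. Mcm2 in the ileum was 166, 169 and 172 CPM in WT Tconv and 128, 135 and 131 CPM in TNFdARE Tconv, against 85.9, 111 and 163 CPM in WT Treg and 87.4, 88.2 and 90.4 CPM in TNFdARE Treg. All but 1 Treg library, WT C, lay below the Tconv libraries (−0.51 ± 0.13, 1.42-fold, adjusted p = 0.021). Tk1 in the ileum was 2.17-fold higher in Treg (1.12 ± 0.21, adjusted p = 0.0044) and higher in all 6 pairs. With the sample-sheet number (33 to 44 or not) as a covariate, Tk1 (adjusted p = 0.055), Mcm2 (adjusted p = 0.081) and Mcm4 no longer passed. Mcm4 held in 13 of 18 alternative fits, and Tk1 and Mcm2 in 17 of 18 each.

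In the synovium no gene passed in either direction, where 0.952% of all genes passed as higher and 0.145% as lower in Treg, and 7 of the 45 had an unadjusted p under 0.05. DESeq2 called 7. The mitotic score was lower in Treg in all 3 pairs of 1 experiment, by −1.05 to −0.19, and so was the S phase score, by −0.65 to −0.16, while Tk1 was higher in all 3. These pairs do not hold Treg WT B, and over all libraries the mitotic score was 0.10 higher in Treg. Without Treg WT B the quasi-likelihood test called 3 higher and 6 lower, and without Treg WT A 1 higher. Mki67 was 149 and 111 CPM in WT Treg and 136, 174 and 63.2 CPM in TNFdARE Treg, and 23.5 CPM in the WT Tconv library and 179 and 101 CPM in TNFdARE Tconv (1.11 ± 0.39, adjusted p = 0.32). The WT Tconv library stood lowest, and the TNFdARE Tconv libraries lay 1 within the range of Treg and 1 (A) above it. Mcm2 was 47 to 96.5 CPM in Treg and 117 to 169 CPM in Tconv without overlap (−0.99 ± 0.28, adjusted p = 0.21).

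Whether the log2 fold change of Treg against Tconv itself differed between tissue and node was asked with the interaction of cell type and site, a comparison added after the values above were seen. Against the mesenteric node, 5 genes had a lower log2 fold change of Treg against Tconv in the ileum and none a higher one, where 4.84% of all genes were lower and 1.41% higher: Mki67 (−2.0 ± 0.47, adjusted p = 0.013), Top2a (−1.33 ± 0.34), Uhrf1, the partner of Dnmt1 (−1.33 ± 0.27), Tk1 (−1.27) and Mcm6 (−0.65 ± 0.13). The block by experiment gave 12 lower and 1 higher, where 5.29% of all genes were lower and 1.73% higher. Against the joint nodes, 7 genes had a lower one in the synovium and none a higher one, where 3.57% of all genes were lower and 2.00% higher: Kif11, the motor that separates the spindle poles (−2.65 ± 0.57, adjusted p = 0.011), Tk1 (−2.39 ± 0.37, adjusted p = 0.00087), Rrm2 (−2.15 ± 0.40, adjusted p = 0.0039), Kif20a (−2.10), Mki67 (−1.71), Ccnb2 (−1.58) and Mcm2 (−0.95). Mcm2 had no called difference at either site, with −0.06 in the joint nodes (adjusted p = 0.59) and −0.99 in the synovium. This count was 10 without synovial Treg WT A and 30, of which 28 lower, without synovial Treg WT B. Between the 2 nodes no gene passed, where 0.731% of all genes were higher and 0.631% lower. There 15 of the 45 had an unadjusted p under 0.05, DESeq2 called 2, and the block gave 2 lower, where 1.30% of all genes were lower and 1.16% higher.

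The summed level of 4 Treg markers (Foxp3, Il2ra, Ikzf2 and Ctla4) in Tconv also differed between the sites. All 4 were detected in each Tconv group, and their sum was 32.2 to 195 CPM in the nodes, 1660 to 3370 CPM in the ileum, 2830 to 2880 CPM in the TNFdARE synovium and 445 CPM in the WT synovium library, against 2780 to 6970 CPM in Treg of the ileum and nodes. In Tconv of the WT ileum, Foxp3 alone was 13.3 to 18.9 CPM and the sum of the 4 markers 1660 to 1870 CPM. The part of these markers in the result was not tested.

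The tissues were then set against the node that drains them within each cell type. Ileal Tconv held more cell cycle mRNA than Tconv of the mesenteric node almost throughout: 42 genes were higher and 1 lower, where 34.3% of all genes were higher and 26.7% lower. The mitotic score was 3.43 to 4.45 in the ileum and 0.61 to 2.81 in the node, without overlap. The mitotic list was higher in 23 of 23 with a median of 2.37, the S phase list in 8 of 9 with a median of 0.55 and the other members in 11 of 13 with a median of 1.66, against 0.08 over all genes. Nusap1, a spindle protein, was 9.37-fold higher, Bub1 8.7-fold, Mki67 7.93-fold (2.99 ± 0.35, adjusted p = 1.6e-05), Ccne2 4.89-fold, Tk1 4.28-fold, Rrm2 4.13-fold, Foxm1 3.92-fold, Tyms 2.05-fold and Mcm6 1.75-fold. Ccne1 was lower (−0.67 ± 0.16), and Mcm7 and Stmn1 did not pass.

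Synovial Tconv against Tconv of the joint nodes gave 39 higher and 1 lower, where 16.3% of all genes were higher and 18.4% lower and the median over all genes was −0.29. Kif11 was 45.8 and 65.7 CPM in TNFdARE synovium and 27.2 CPM in the WT library, against 1.67 to 5.48 CPM in the 6 node libraries, and the difference was 3.49 ± 0.24 (11.2-fold, adjusted p = 8.2e-06). Aurkb and Tk1 were each 11.2-fold higher, Bub1 10.5-fold, Mybl2 9.07-fold, Rrm2 5.37-fold, Gins2 5.25-fold, Tyms 2.43-fold and Pcna 1.55-fold. Mcm7 was lower (−0.29 ± 0.08, adjusted p = 0.023), a call lost with the block, the sample-sheet covariate and the fit of all 42 libraries. Of the 45 genes, 37 were higher in both Tconv comparisons (88.1% of the 42 and 94.9% of the 39), and Mcm7 was the gene higher in neither. The synovial arm rests on 3 libraries, 1 of them WT.

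These contrasts of tissue and node use the same node libraries as the contrasts of Treg and Tconv above. In Treg the log2 fold changes were smaller in median. Ileal Treg against Treg of the mesenteric node had 11 genes higher and none lower, where 17% of all genes were higher and 12.2% lower, with a mitotic median of 1.20 (8 of 23 higher), an S phase median of 0.16 (0 of 9) and 3 of 13 other members. The mitotic score was higher in the ileum in 5 of 5 pairs, by 0.21 to 1.97. With the block by experiment 23 were higher and 1 lower, where 13.9% of all genes were higher and 10.5% lower. The count was 3 without Treg mesenteric TNFdARE B, 5 without WT B, 6 without WT A and 7 without ileal TNFdARE A. In that last library the summed level of 6 plasma cell genes, all detected, was 11048.1 CPM, against 649 CPM in the lowest library of its group and 1090 to 3810 CPM in WT. The part of these genes in the result was not tested.

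Cenpa, the histone variant that marks centromeres, set the ileum apart in both cell types. It was 291 to 529 CPM in the 6 ileal Treg libraries and 61.7 to 76.8 CPM in the 5 mesenteric ones (2.45 ± 0.16, 5.46-fold, adjusted p = 5.8e-06), and 192 to 360 CPM against 42.5 to 48.3 CPM in Tconv (2.53 ± 0.18, 5.78-fold, adjusted p = 2.5e-07). Neither pair of groups overlapped. In the synovium it was 57.3 to 140 CPM over both cell types, 1.59-fold above the joint nodes in Treg (adjusted p = 0.014) and 1.86-fold in Tconv (adjusted p = 0.0026); the difference between ileum and synovium was not tested. Also higher in ileal Treg were Kif23, which acts in cytokinesis, by 6.4-fold (adjusted p = 0.0059), Cdk1 2.92-fold, Ccne2 2.24-fold, Cdt1 1.84-fold and Tk1 1.77-fold. Kif23 and Cdt1 held in 17 of 17 alternative fits, Ccne2 in 15, Tk1 in 12 and Cdk1 in 10. The calls of Cdk1, Ccne2 and Tk1 were lost with the sample-sheet covariate, among other fits.

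Synovial Treg against Treg of the joint nodes gave 15 higher and 1 lower, where 19.2% of all genes were higher and 18.5% lower. Bub1 was 4.51-fold higher, Cenpf 4.29-fold, Kif23 3.88-fold (adjusted p = 1.9e-05), E2f1 3.72-fold, Mki67 2.39-fold (1.26 ± 0.26, adjusted p = 0.0044), Ccne2 2.21-fold, Tk1 2.18-fold and Pcna 1.54-fold, and Mcm7 was lower (−0.66 ± 0.14, adjusted p = 0.005). The calls of Pcna (adjusted p = 0.05 when rounded), Mcm7 (0.052) and Ccne2 (0.21) were lost with the sample-sheet covariate. Bub1, Cenpf, Kif23, E2f1 and Tk1 held in 17 of 17 alternative fits. Kif23 was 33.6 to 67.1 CPM in the 5 synovial libraries and 9.22 to 18.8 CPM in the 6 node libraries, without overlap. The counts depended on the 2 synovial WT libraries: 27 were higher and 1 lower without A, and 17 higher and 11 lower without B. Within 1 experiment the mitotic score was higher in the synovium in 3 of 5 pairs, from −0.51 to 1.73. In both Treg comparisons 6 genes were higher (54.5% of the 11 and 40% of the 15). The stromal sums given above differ between these libraries, and their part in the result was not tested.

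Between the nodes few genes passed without the block by experiment, and more did with it in Treg. Treg of the mesenteric node had 1 gene higher than Treg of the joint nodes, Mcm6 (0.32 ± 0.08, adjusted p = 0.016), and 2 lower, Kif23 (−1.24 ± 0.27, adjusted p = 0.0084) and Foxm1 (−0.89), where 7.57% of all genes were higher and 5.25% lower. With the block 18 were lower, 13 of them mitotic, and 1 higher (9.56% and 11.6% of all genes). Within 1 experiment Mki67 and Tk1 were each lower in mesenteric Treg in 5 of 5 pairs, and the mitotic score was lower in 4 of 5, from −1.78 to 0.14. Leaving out Treg mesenteric TNFdARE C gave 15 lower and leaving out WT C gave 11 lower and 1 higher. In Tconv, Mcm6 (0.34 ± 0.06) and Uhrf1 (0.57) were higher in the mesenteric node and Kif23 (−0.90 ± 0.19) lower, where 2.82% of all genes were higher and 0.924% lower. In Tconv the mitotic score was higher in the mesenteric node in 3 of 5 pairs, from −0.92 to 1.07.

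**Figure D3:**
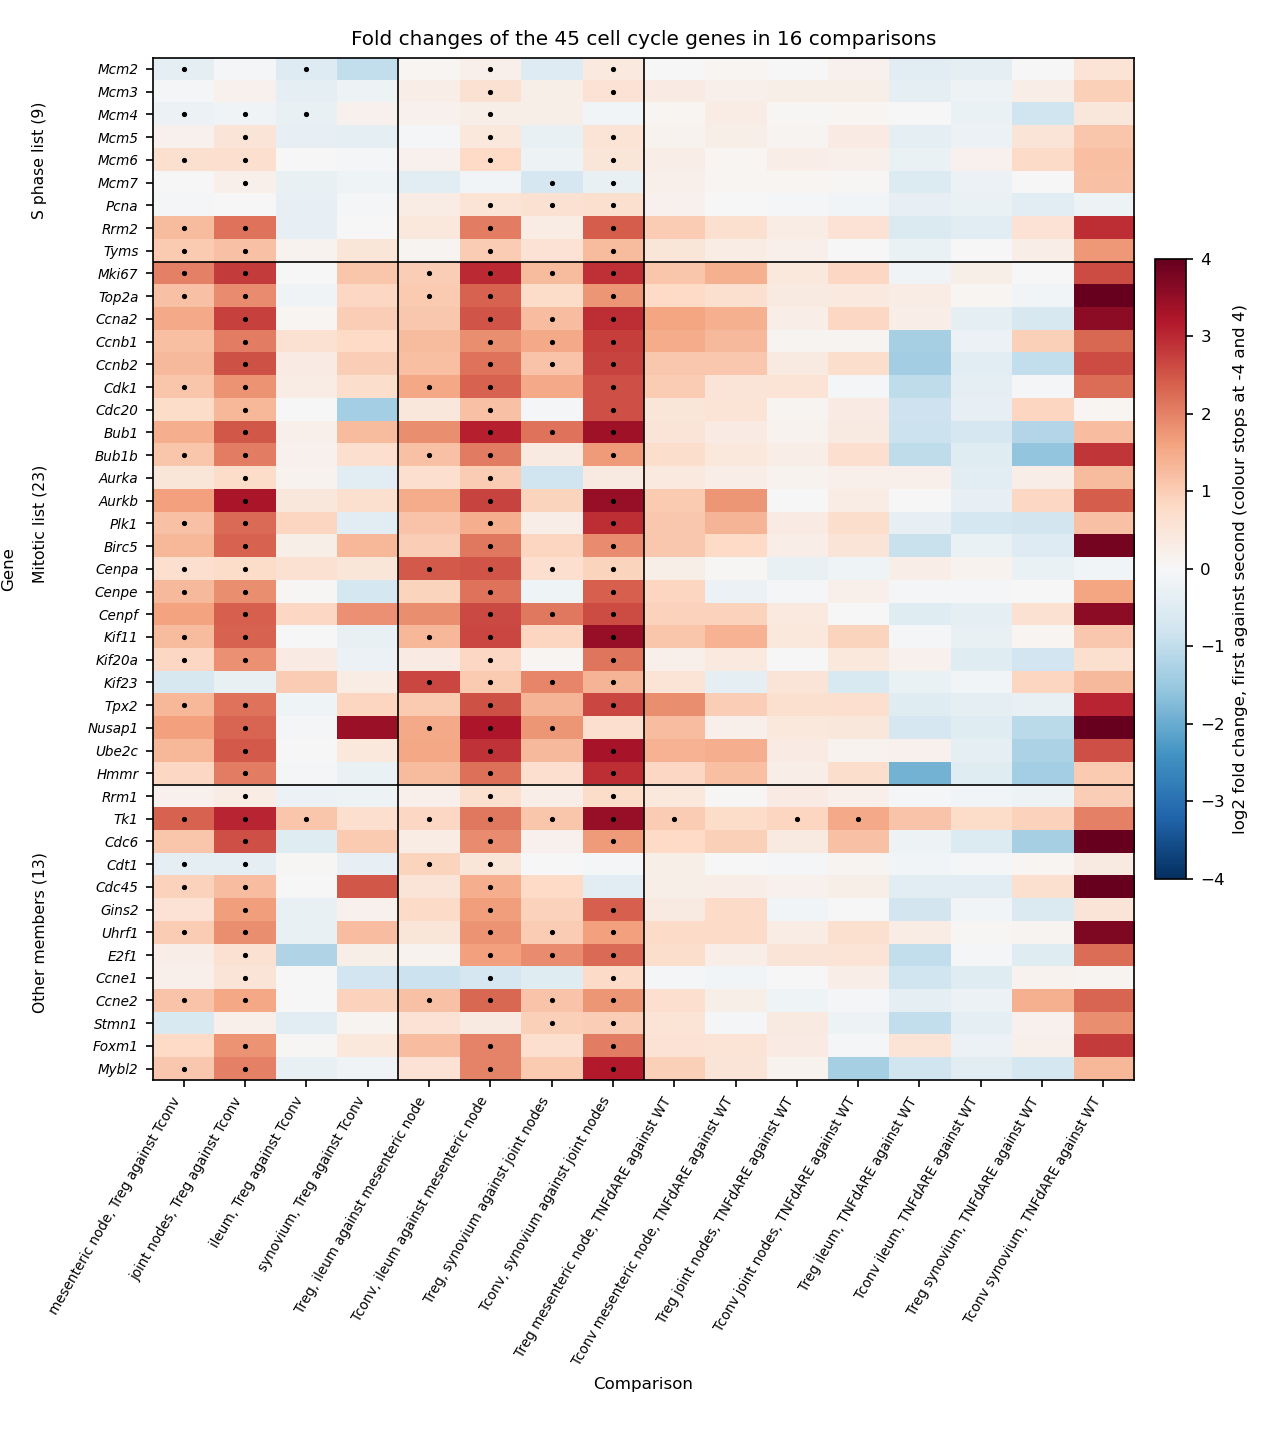
Log2 fold change of each of the 45 genes (rows, in 3 lists) in 16 comparisons (columns, first group against second); red is higher and blue lower in the first group, the scale stops at −4 and 4, and a dot marks an adjusted p under 0.05. The columns of Treg against Tconv in the joint nodes (38 higher) and of Tconv tissue against node (42 and 39 higher) are red through the mitotic rows, and the 8 genotype columns on the right hold 3 dots, all Tk1. All columns come from fits without the block by experiment.

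Between genotypes, few of the 45 genes passed without the block by experiment. The TNFdARE and WT groups were compared in each cell type at each site. Without the block Tk1 was the 1 gene called, in 3 of 8 comparisons, each time higher in TNFdARE. With the block further genes passed, among them Rrm2, Birc5 and Mki67 in Treg of the mesenteric node, as given below. In Treg of the mesenteric node Tk1 was 23.2 and 24.5 CPM in TNFdARE against 10.4, 10.6 and 14.4 CPM in WT (1.03 ± 0.19, 2.05-fold, adjusted p = 0.0083), where 3.84% of all genes were higher and 1.84% lower. In Treg of the joint nodes it was 31.7, 26.8 and 26.7 CPM against 13.2, 17.4 and 16.6 CPM (0.85 ± 0.23, 1.8-fold, adjusted p = 0.048), where 3.36% were higher and 2.34% lower. In Tconv of the joint nodes it was 4.75, 4.14 and 3.83 CPM against 1.06, 0.951 and 2.5 CPM (1.5 ± 0.29, 2.83-fold, adjusted p = 0.0098), where 2.29% were higher and 0.504% lower. The groups did not overlap in any of the 3. The call in the mesenteric node was lost without Treg TNFdARE B, without Treg TNFdARE C and in the fit of all 42 libraries, and without Treg TNFdARE B the gene called was Tpx2 instead. Without Treg WT C 3 genes were called. In Treg of the joint nodes it held in 7 of 18 alternatives and was lost without any 1 of the Treg libraries or of the TNFdARE Tconv libraries of that fit. In Tconv of the joint nodes it was lost without Tconv WT A or Tconv WT B, and 2 genes were called without Tconv WT C or without Treg WT A.

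At the other sites Tk1 pointed the same way without passing. In ileal Treg it was 47.5, 32.9 and 52.9 CPM in TNFdARE against 17.3, 13 and 29 CPM in WT (2.22-fold, adjusted p = 0.12), and passed with the block by experiment (1.19 ± 0.21, adjusted p = 0.032). In ileal Tconv it was 18.7, 15.3 and 19.4 CPM against 9.83, 10.2 and 12.4 CPM (0.72, adjusted p = 0.52), and in Tconv of the mesenteric node 4.65 and 3.84 CPM against 2.45, 2.61 and 2.49 CPM (0.74, adjusted p = 0.11). In synovial Treg it was 65.5, 56.5 and 63.8 CPM against 23.6 and 43.1 CPM (0.93, adjusted p = 0.47), and in synovial Tconv 58.7 and 52.2 CPM against the single 14.1 CPM (2.01, adjusted p = 0.21). The TNFdARE and WT libraries overlapped in none of these 5. Over all 19 pairs of TNFdARE and WT libraries of 1 experiment, cell type and site, Tk1 was higher in TNFdARE in 19 and Mki67 in 16. Pairs of 1 experiment may share animals. Tk1 was followed after its values in these same libraries were seen, so its count describes them and adds no separate support. How many of all genes reach such a count was not examined. Foxp3 and the summed Treg markers also differed between genotypes in Tconv: the sum was 85.3 to 122 CPM in TNFdARE and 32.2 to 34.7 CPM in WT joint nodes, and Tk1 in Treg of these nodes was 13.2 to 31.7 CPM. The part of these markers in the Tconv result was not tested.

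**Figure D4:**
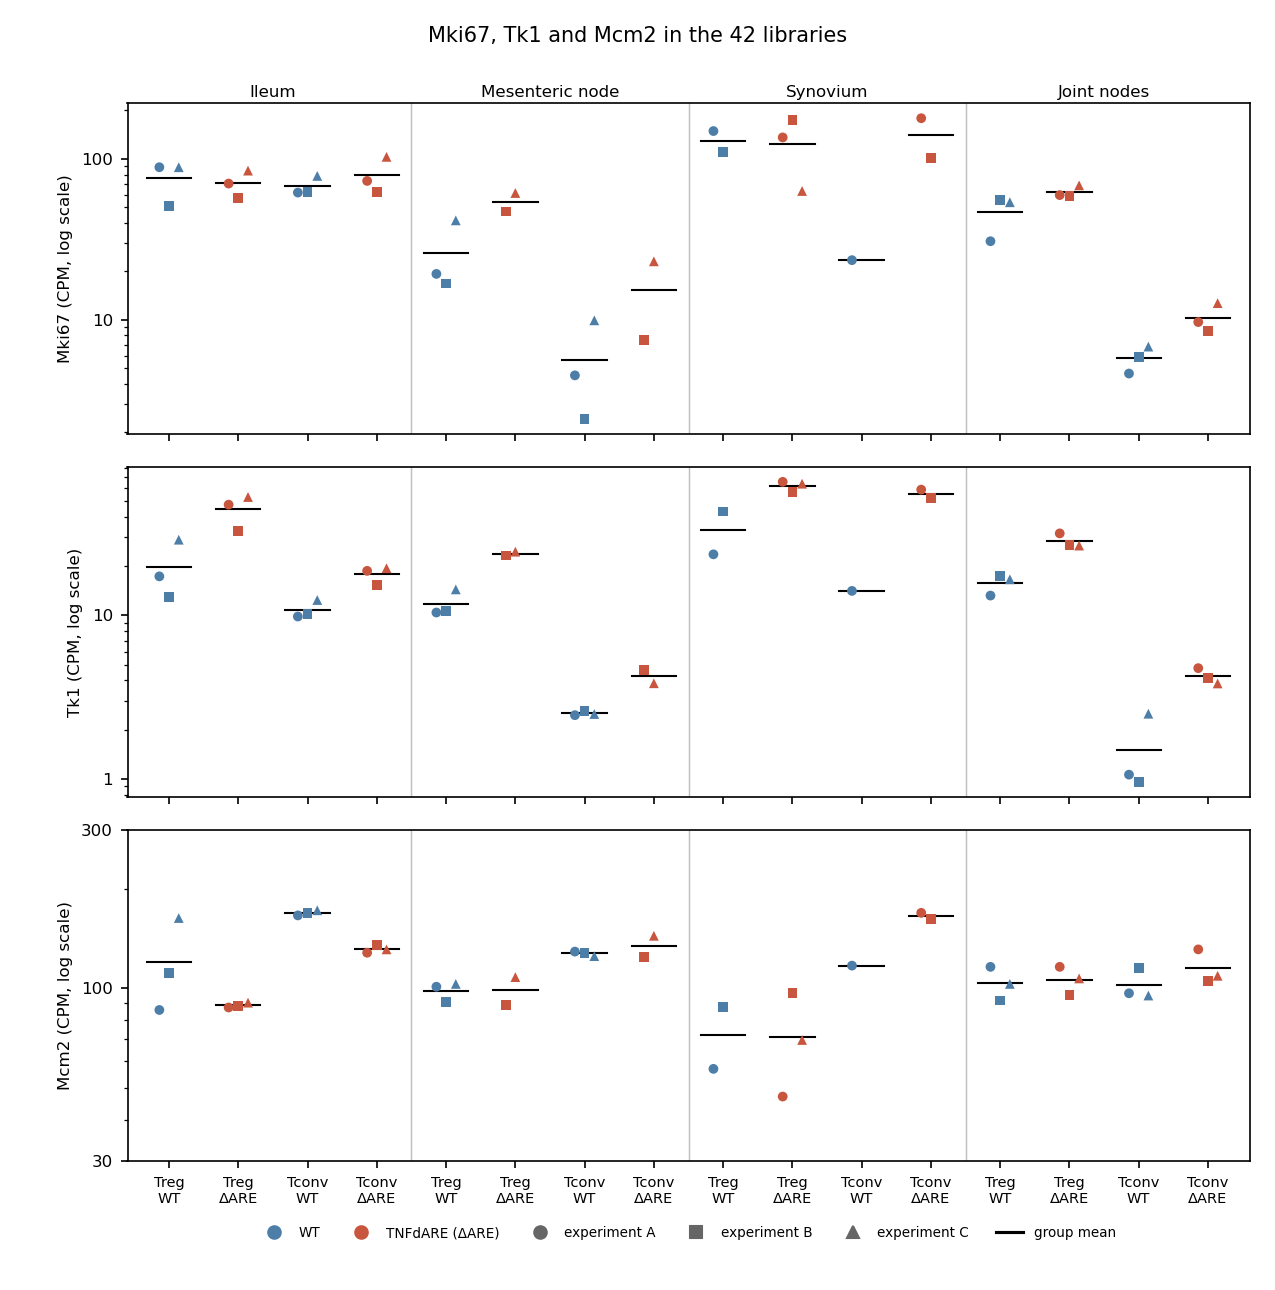
CPM (log axis) of Mki67, Tk1 and Mcm2 in each of the 42 libraries, by site, cell type and genotype, with marker shape for the experiment and a black line for the group mean. In the middle panel the red TNFdARE points of Tk1 lie above the blue WT points of the same cell type and site in all 8 settings, and in the lower panel Mcm2 stays between 47 and 172 CPM.

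The other genes mostly did not pass between genotypes, and more of them did with the block by experiment. Many of the 45 genes moved together across the libraries, so the counts of positive log2 fold changes given from here on are not counts of separate observations. The share of all genes with a positive change is not set beside them. In Treg of the mesenteric node all 23 mitotic genes and 44 of the 45 genes had a positive log2 fold change, with a mitotic median of 1.00, against 0.01 over all genes. With the block by experiment 9 were higher, where 4.80% of all genes were higher and 2.46% lower: Rrm2 (0.93 ± 0.14, adjusted p = 0.0033), Tk1, Birc5, a survival and mitosis factor (0.99 ± 0.21, adjusted p = 0.017), Rrm1, Top2a, Mki67 (1.13 ± 0.26, adjusted p = 0.025), Uhrf1, Kif11 and Tpx2. Rrm2 was 27.1 CPM in TNFdARE B against 14.2 CPM in WT B, and 73.8 CPM in TNFdARE C against 42.9 CPM in WT C, so that TNFdARE B lay below WT C. In Tconv of the same node 39 of 45 were positive with a mitotic median of 0.81 and none passed, where 1.79% of all genes were higher and 0.574% lower. At an unadjusted p under 0.05 stood 6, DESeq2 called 1, and the block gave 2, among them Mki67 (1.29 ± 0.28, adjusted p = 0.036), where 2.18% of all genes were higher and 0.628% lower.

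In the joint nodes 37 of 45 genes were positive in Treg (mitotic median 0.27) and 36 of 45 in Tconv (0.38). With the block 3 were higher and 1 lower in Treg (5.59% and 4.79% of all genes): Tk1, Mcm6 (0.26 ± 0.07), Rrm1 (0.32 ± 0.09) and, lower, Cenpa (−0.29 ± 0.08, adjusted p = 0.037). The block in Tconv gave 2 higher, Tk1 and Mki67 (0.84 ± 0.18, adjusted p = 0.014), where 3.04% of all genes were higher and 0.885% lower. Without the block Mki67 in Tconv was 9.69, 8.56 and 12.7 CPM in TNFdARE against 4.64, 5.85 and 6.82 CPM in WT, with no overlap, and had 0.84 ± 0.23 (adjusted p = 0.083).

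In the ileum none of the 45 genes passed in either cell type. A positive log2 fold change was found for 10 of 45 in Treg (mitotic median −0.34, against 0.00 over all genes) and 7 of 45 in Tconv (−0.38, against −0.02), where 0.484% of all genes were higher and 0.245% lower in Treg, and 1.17% and 0.138% in Tconv. An unadjusted p under 0.05 was reached by 9 genes in Treg and 2 in Tconv. DESeq2 called 1 gene in Treg and 0 in Tconv, and the block 1 in Treg (0.942% of all genes higher, 0.553% lower). Leaving out Treg WT B gave 2 lower, and leaving out Treg WT C gave 1 higher. The S phase score was lower in TNFdARE in 3 of 3 pairs of either cell type, by −0.45 to −0.17 in Treg and by −0.32 to −0.15 in Tconv, and the Tconv groups did not overlap (6.66 to 6.77 against 6.80 to 7.08). Against that direction, Mki67 was higher in TNFdARE in 3 of 3 Tconv pairs and 1 of 3 Treg pairs, and Tk1 in 3 of 3 of each. The difference in genotype effect between the ileum and the nodes was not tested. Mcm2 had −0.45 ± 0.18 (adjusted p = 0.32) in Treg and −0.36 ± 0.18 (adjusted p = 0.77) in Tconv.

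In the synovium no gene passed in Treg, where 0.111% of all genes were higher and 0.0445% lower and 5 of the 45 had an unadjusted p under 0.05; DESeq2 called 1, and leaving out WT B gave 10 higher and 1 lower. Synovial Tconv set 2 TNFdARE libraries against 1 WT library, so that the WT spread was taken from the other groups of the fit. There 43 of 45 genes were positive with a mitotic median of 2.31, against 0.24 over all genes. None passed, where 0.501% of all genes were higher and 0.0111% lower, while 16 of the 45 had an unadjusted p under 0.05 and DESeq2 called 14. The count was 5 without Treg WT A and 3 without Treg WT B of that fit. Top2a, topoisomerase II alpha, was 202 and 167 CPM against 10.2 CPM, and Birc5 33.9 and 42.3 CPM against 2.72 CPM. In the WT library the summed level of 5 CD8 T and NK cell markers, all detected, was 916 CPM, against 32 to 83.9 CPM in the TNFdARE libraries, and that of 7 myeloid markers was 159 CPM, with Adgre1 at 0, against 9.72 to 12.6 CPM. The part of those cells in the difference was not tested.

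**Figure D5:**
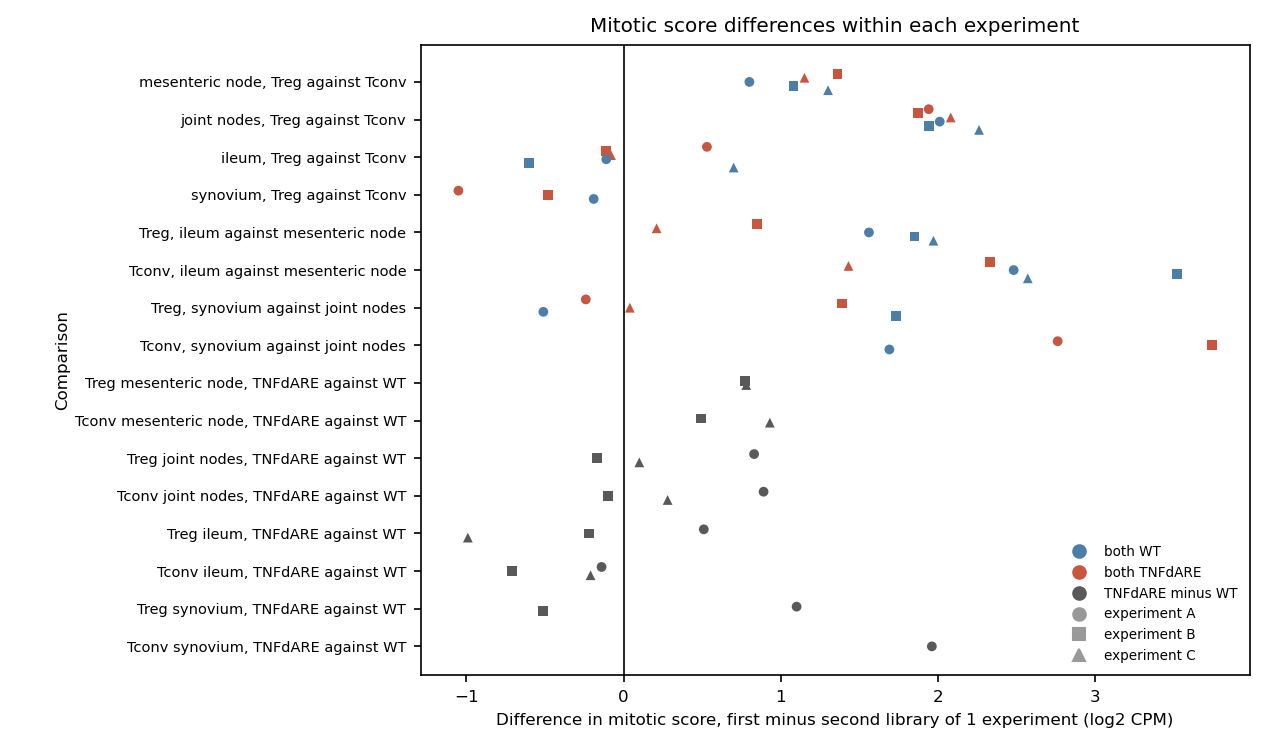
Difference in mitotic score (log2 CPM) between 2 libraries of the same experiment, first minus second, for 16 comparisons; each point is 1 pair, the shape gives the experiment and the colour whether both libraries were WT, both TNFdARE, or 1 of each. All 6 pairs of Treg against Tconv in the joint nodes lie between 1.87 and 2.26 and all 5 in the mesenteric node between 0.80 and 1.36, while the 6 ileal pairs lie on both sides of 0.

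Whether the genotype effect differed between Treg and Tconv was tested at each site, and none of the 45 genes passed. The share of all genes passing in either direction was 0.0188% in the ileum, 0.209% in the mesenteric node, 0.449% in the joint nodes and 0.0891% in the synovium. At an unadjusted p under 0.05 stood 0, 0, 3 and 13 of the 45, and DESeq2 called 0, 0, 1 and 10. In the synovium leaving out Treg WT B gave 6 and leaving out Treg WT A gave 2. The genotype effect in Treg was also compared between the 2 nodes. None of the 45 passed, where 0.351% of all genes did, with 1 at an unadjusted p under 0.05 and 1 by DESeq2.

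Other genes of the pathway, none of them members, were counted in the same way. In the joint nodes, where 22.1% of all genes were higher and 21.2% lower in Treg, 21 of 24 other mitotic genes were higher in Treg and none lower (median log2 fold change 1.58), led by Kif4 (3.20 ± 0.36), Melk (2.76) and Ncapg (2.54), and 11 of 20 other replication genes were higher and 1, Dnmt1, lower. Of 6 other E2F genes 4 were higher, E2f8, which represses E2F targets, by 2.91 ± 0.32. Among 8 cyclin D and G1 kinase genes 3 were higher and 2 lower, near the share of all genes. Cdk6, a G1 kinase, was higher by 2.02 ± 0.11 (adjusted p = 2e-09), and Ccnd3, a D-type cyclin, was lower by −0.27. In the mesenteric node the counts were 8 of 24 other mitotic, 7 higher and 2 lower of 20 replication and 4 of 6 E2F genes, where 20.8% of all genes were higher and 17.8% lower.

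Genes that brake the cycle were counted beside the same shares of all genes. In Treg of the joint nodes 5 of 8 tested inhibitors were higher and 1 lower (22.1% and 21.2% of all genes), among them Cdkn1a (p21) by 2.21 ± 0.35, Cdkn2c (p18) by 1.46 ± 0.11 and Cdkn1b (p27) by 0.59, and Cdkn2d (p19) was lower by −0.70. Cdkn1a showed its widest differences between tissue and node: 7.48 ± 0.15 in Tconv of the ileum against the mesenteric node (adjusted p = 2.1e-11), 6.83 ± 0.26 in Tconv of the synovium against the joint nodes, 4.51 ± 0.24 in Treg of the ileum and 5.77 ± 0.26 in Treg of the synovium. In ileal Tconv 7 of 9 inhibitors were higher and 1 lower (34.3% and 26.7% of all genes), and in synovial Tconv 5 of 9 were higher (16.3%). Of 8 genes linked to T cell quiescence, 3 were higher and 2 lower in ileal Tconv, which is near the share of all genes. The counts were 3 and 4 in synovial Tconv (16.3% and 18.4% of all genes), 4 and 2 in ileal Treg (17% and 12.2%), and 3 and 3 in synovial Treg (19.2% and 18.5%). Tob1, an antiproliferative gene of resting T cells, was higher in all 4 tissue against node comparisons, by 0.72 to 1.82, and Foxp1, which holds T cells in quiescence, was lower in all 4, by −1.28 to −0.49. Of 8 targets of p53 and DNA damage, 4 were higher and none lower in Treg of either node (22.1% of all genes higher in the joint and 20.8% in the mesenteric node), Phlda3 by 1.64 ± 0.25 in the joint nodes and 1.90 ± 0.26 in the mesenteric node.

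Between genotypes some of these pathway genes passed. Cdk6 was higher in TNFdARE in 4 settings: ileal Treg (0.85 ± 0.11, adjusted p = 0.0074), ileal Tconv (0.94 ± 0.11, adjusted p = 0.0021), and Treg (1.12 ± 0.17, adjusted p = 0.0024) and Tconv (0.78 ± 0.18, adjusted p = 0.044) of the mesenteric node. Cdkn2c was higher in Treg of the ileum (0.76 ± 0.14, adjusted p = 0.04), the mesenteric node (1.45 ± 0.26, adjusted p = 0.0068) and the joint nodes (0.76 ± 0.15, adjusted p = 0.0075). Cdkn1a was higher in ileal Tconv (1.12 ± 0.17, adjusted p = 0.008) and in Treg of the mesenteric node (1.47 ± 0.35, adjusted p = 0.029). Racgap1, which acts with Kif23 in cytokinesis, was higher in Treg of the mesenteric node (1.23 ± 0.29), Treg of the joint nodes (0.73 ± 0.13) and Tconv of the joint nodes (0.79 ± 0.13).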

How the data were processed

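The 45 genes and all gene lists were chosen with earlier results of these data known. RNA of sorted cells was amplified with SMART-Seq v4 PLUS from 100 pg or 2 ng of total RNA, which of the 2 for which library not being stated, and sequenced as single reads, per the labels' protocols. The submitters' processing notes name cutadapt 1.15, Bowtie2 2.3.3.1 and GRCm38; the counting program and its annotation are not given in the sources used here. The authors deposited raw counts per Ensembl gene (main input) and an FPKM table of 18964 genes, used here only to compare levels between genes. Symbols came from GENCODE annotation for 46091 of 46603 gene IDs; no counts column was without a sample.

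Counts were fitted with edgeR 4.0.16 in R 4.3.3 (filterByExpr, TMM, quasi-likelihood F test, Benjamini-Hochberg adjustment over all genes tested, threshold 0.05), per site for cell type and genotype (4 groups) and per cell type for 2 sites; contrasts of cell types or sites weight both genotypes equally. CPM are TMM-scaled, with a prior count of 2 in log2 values. Alternatives were RLE factors, no filter beyond 1 count, DESeq2, the experiment as a block, the sample-sheet number (33 to 44 or not) as a covariate, 1 fit of all 42 libraries, and leaving out libraries. Numbers 33 to 44 belong to all synovial libraries except Tconv TNFdARE B and Treg TNFdARE B. They also belong to ileal Treg TNFdARE A, WT A and WT C, and among the nodes to Treg WT C of the joint nodes alone. In the synovium, site and sheet number are therefore only partly separable. In the ileum these numbers fall on Treg alone, and no mesenteric library holds one. Sheet number is thus only partly separable from cell type in the ileum and from site in ileal against mesenteric Treg. These 3 ileal Treg libraries had 17401, 16702 and 14712 genes detected, against 19003 to 20887 in the other ileal libraries. Because the letters A to C name experiments in the labels, they pair the libraries, but the main fits hold no term for the experiment. Deviations from the group mean were compared in 18 pairs of 1 TNFdARE and 1 WT library of the same cell type, site and letter. They correlated above 0.1 in 14 of the 18 (−0.02 to 0.41, median 0.21). The fit was tested on simulated counts for TNFdARE against WT in Treg of the joint nodes, with the same spread for all genes. That spread was set and not taken from these libraries. It called 6 of 50 genes changed 1.5-fold, 25 of 50 changed 2-fold, 49 of 50 changed 4-fold and 47 of 50 changed 8-fold. The 1.5-fold and 4-fold changes were all increases and the 2-fold and 8-fold changes all decreases, so size and direction are not separable. Increases of 1.5-fold and decreases of 2-fold were thus often missed in the simulation, and increases of 2-fold were not simulated. Mki67 and Mcm2 were named in the cell type and genotype comparisons, up to 3 called genes per list and direction by size of change where the mean log2 CPM was at least 1, and others by role; Tk1 and Cenpa were followed after their values were seen.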

Additional observations from a re-analysis of the deposited data

Results flagged for a closer look

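Treg and Tconv differed from each other to a different degree at different sites, by the test of the difference itself (the interaction of cell type and site, edgeR's quasi-likelihood test, adjusted p under 0.05), a comparison added after the data were seen. For the ileum against the mesenteric node, the Treg minus Tconv log2 fold change was lower by −2.0 for Mki67, −1.33 for Top2a, −1.33 for Uhrf1, −1.27 for Tk1 and −0.65 for Mcm6. For the synovium against the joint nodes it was lower by −2.65 for Kif11, −2.39 for Tk1, −2.15 for Rrm2, −2.10 for Kif20a, −1.71 for Mki67, −1.58 for Ccnb2 and −0.95 for Mcm2. The Treg marker sums of the Tconv libraries and the stromal sums of the synovial WT Treg libraries differ between these sites, and their part in these differences was not tested. No group held 4 or more libraries, so none could be examined for a single library far from the others.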

How the results depend on the processing

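The counts of genes called (main value in brackets) kept within 1.5 times under all alternatives run in Treg against Tconv of the joint nodes (40), Tconv of the ileum against the mesenteric node (43) and Tconv of the synovium against the joint nodes (40), and ileal Tconv between genotypes stayed at 0. The called genes named by the rule kept their sign in every alternative run, whereas several score differences that were small beside their spread changed sign. The other counts moved, and except for what fewer libraries or other genes tested change by construction, the cause was not tested. The share of all genes called in the same fit is not set beside the counts below, so their moves are not read as particular to these genes.

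Treg against Tconv of the mesenteric node (21) gave 35 with no filter beyond 1 count, 36 with the replicate block, 11 in 1 fit of all libraries and 12 to 28 leaving out libraries. For the ileum (3) it gave 6 with DESeq2, 6 with the block, 0 with the sheet covariate, 5 in 1 fit and 2 to 7 leaving out libraries; for the synovium (0), 1 with RLE factors, 1 without the filter, 7 with DESeq2, 4 in 1 fit and 0 to 9. Ileal Treg against mesenteric Treg (11) gave 21 with DESeq2, 24 with the block, 3 with the sheet covariate and 3 to 12; synovial Treg against the joint nodes (16), 9 with the sheet covariate and 15 to 28; mesenteric against joint node Treg (3), 25 without the filter, 8 with DESeq2, 19 with the block, 1 in 1 fit and 2 to 15; and the same in Tconv (3), 7, 6 with DESeq2 and 0 in 1 fit.

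Between genotypes, ileal Treg (0) gave 1 with DESeq2, 1 with the block, 1 in 1 fit and 0 to 2 leaving out libraries. Mesenteric Treg (1) gave 14 without the filter, 3 with DESeq2, 9 with the block, 0 in 1 fit and 0 to 3, and mesenteric Tconv (0) gave 10, 1 with DESeq2 and 2 with the block. Joint node Treg (1) gave 2 with RLE factors, 2 without the filter, 3 with DESeq2, 4 with the block, 0 with the sheet covariate, 0 in 1 fit and 0 to 1; joint node Tconv (1) gave 8 without the filter, 2 with DESeq2, 2 with the block and 0 to 2. Synovial Treg (0) gave 1 with DESeq2, 4 in 1 fit and 0 to 11, and synovial Tconv (0) gave 3 without the filter, 14 with DESeq2, 13 in 1 fit and 0 to 5. The genotype effect in Treg against Tconv gave, in the joint nodes (0), 1 without the filter and 1 with DESeq2, and in the synovium (0), 1, 10, 8 in 1 fit and 0 to 6; between the nodes in Treg (0) it gave 4, 1 with DESeq2 and 1 with the block. The added Treg minus Tconv differences gave 8 without the filter, 9 with DESeq2 and 13 with the block for ileum against mesenteric node (5), 12 with DESeq2 and 30 without synovial Treg WT B for synovium against joint nodes (7), and 14, 2 and 2 between the nodes (0). Those added comparisons were left-out tested for 3 chosen libraries only, and Tconv of the mesenteric against the joint nodes was not left-out tested.

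With the median over genes in place of the mean, the S phase score difference was 0.04 (mean 0.18) between genotypes in joint node Tconv, 0.74 (1.05) in synovial Tconv, −0.11 (0.24) and 0.11 (0.52) for Treg against Tconv in the mesenteric and joint nodes, 0.46 (0.65) for ileal and 0.29 (0.63) for synovial Tconv against node, and −0.50 (−0.84) for the synovial difference in genotype effect. Leaving out libraries moved the S phase difference between genotypes from −0.03 to 0.41 in mesenteric Tconv and from −0.20 to 0.62 in synovial Treg, where the mitotic one ran from −1.11 to 1.46. The difference in genotype effect between Treg and Tconv ran from −0.13 to 0.31 (S phase, mesenteric node), from −1.25 to −0.43 (S phase, synovium) and from −3.26 to −0.69 (mitotic, synovium), and that between the nodes in Treg from −0.04 to 0.32 (S phase) and from −0.16 to 1.33 (mitotic).

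Groups held 1 to 3 libraries, and a gene not called is not shown to be alike in the groups compared.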
